A study of Mus musculus with 20 samples.

Results

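The comparison described here sets 4 RNA-seq libraries of epididymal fat taken on day 6 of a high-fat diet against 4 taken on day 2. They are 8 of the 20 libraries of a time course, and were chosen by the diet and day in their labels. All mice were male C57BL6/J animals, a common inbred laboratory strain, and all 8 had been switched from chow to the high-fat diet, so no library of the comparison is a chow control. The other 12 libraries, 4 each from chow (day 0), day 4 and day 14, were filtered, scaled and fitted together with these 8, so they also bear on the estimate of the spread, and they are shown where they place a value. Age, the fat content of the diet and the hour of collection are not given in the sources used here. The labels call the libraries biological replicates, and whether a library held 1 mouse or several is not stated. In whole tissue, fewer cells of a type and less RNA per cell cannot be told apart.

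Epididymal fat is the large gonadal depot of male mice, made of fat cells that store triglyceride together with endothelial, stromal, immune and mesothelial cells, the last forming its surface layer. When energy intake exceeds use, the depot grows by filling its fat cells and later by recruiting new ones, and growth is known to involve remodelling of the collagen matrix around each cell. Autophagy delivers cell contents to lysosomes, where acid hydrolases such as cathepsins break them down, and insulin drives fat cells to take up glucose through the transporter GLUT4. The study's title concerns glucose uptake, insulin signalling and autophagic flux during high-fat feeding.

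Total counts were 1916829, 19943465, 26798901 and 8463161 in day 2 replicates 1 to 4 and 25872484, 26809665, 11418864 and 32363044 in day 6 replicates 1 to 4. Day 2 replicate 1 was the smallest of the 20 libraries. Log2 CPM (counts scaled to the library total) correlated across genes at 0.955 to 0.984 within day 2, 0.97 to 0.987 within day 6 and 0.947 to 0.99 between the days, so libraries of different days were about as alike as libraries of the same day, and genes are not independent replicates. The 8 fat cell markers summed to 27557 to 42016 CPM on day 2 and 23575 to 38919 CPM on day 6, so markers of the labelled tissue were abundant in all 8 libraries. Of other organs' markers, the epididymal genes Lcn5, Spink11 and Defb20, the sperm genes Odf1 and Akap4, the muscle gene Ckm and the sympathetic neuron gene Th had no read in any of the 8 libraries. Some other members of these lists had reads: the 14 skeletal muscle genes summed to 65.7 to 83.9 CPM on day 2 and 73.6 to 143 CPM on day 6, and the 12 nerve and Schwann cell genes to 349.7 to 529 CPM and 318 to 416 CPM. On day 2 most of the muscle sum came from Myl1 (62.9 ± 7.61 CPM) and most of the nerve sum from Pmp22 (381 ± 73.8 CPM, SD, n = 4 each). The sums thus say little about the other members. The p-values measure only the spread between these libraries.

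No gene was called different between day 6 and day 2. Of 15254 genes tested with edgeR's quasi-likelihood test and Benjamini-Hochberg adjustment, 0 (0%) passed an adjusted p of 0.05, and the smallest adjusted p was 0.408. At an unadjusted p under 0.05 there were 1225 genes (8.03%), 838 of them higher on day 6 (5.49%) and 387 lower (2.54%). Scaling by library size alone, in place of TMM factors, turned that split to 591 higher and 607 lower, so the excess of higher genes depended on the scaling. DESeq2, whose own filter left 2537 genes in the adjustment, called 19 of them (0.749%), 17 higher and 2 lower. In 695 genes (4.56%) the 4 libraries of one day all lay beyond the 4 of the other, 422 with day 6 above (2.77%) and 273 with day 6 below (1.79%). The median log2 change of all tested genes was 0.0096, and 51.9% of them had a positive change. The median SE of a log2 change was 0.175, so the unadjusted 95% interval of a typical gene reached 0.367 to either side. This width is not a limit of detection: 432 genes had an absolute log2 change above 1, and 0 passed the adjustment. Changes below are given as differences in values, on the log2 scale as day 6 minus day 2, with a 95% interval from the same fit that is not adjusted for the number of genes. Library values are in CPM scaled by TMM factors and stand in the order of replicates 1 to 4.

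**Figure D1:**
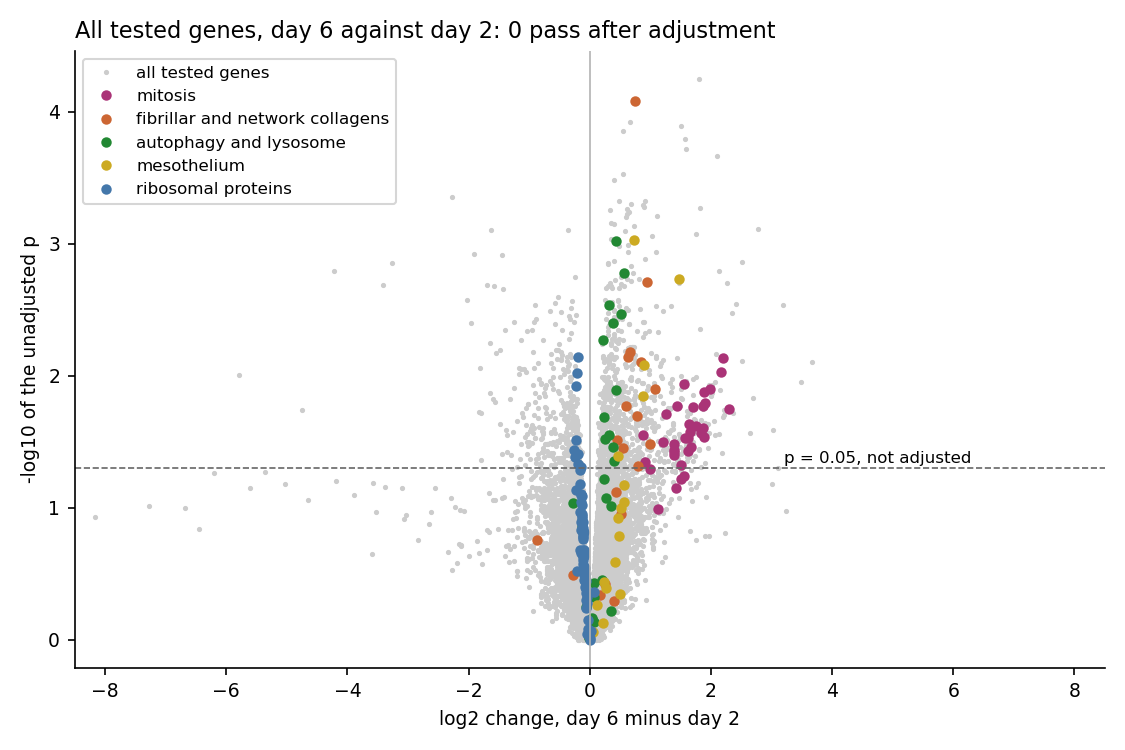
Each point is a tested gene, with its log2 change (day 6 minus day 2) on the x axis and the -log10 of its unadjusted p on the y axis. Grey points are all 15254 genes and coloured points are members of the named gene lists, and the 34 mitosis genes all lie to the right of 0 although 0 genes were called.

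The gene lists describe what the comparison holds beyond single genes: for each, the members with a positive change and the median are given beside the 51.9% and the 0.0096 of all genes, with no test of the list. Counts of members at an unadjusted p under 0.05 are to be read beside 5.49% of all genes higher and 2.54% lower. Counts of members without overlap are to be read beside 2.77% of all genes with day 6 above and 1.79% with day 6 below. Levels of a list are means of its members' log2 CPM relative to the day 2 mean. Of 46 lists, 4 had every day 6 library above every day 2 library (collagens, other matrix proteins, autophagy and lysosome, complement and acute phase), 1 had every day 6 library below (the circadian clock), and 41 overlapped. No member of any list was called by edgeR. DESeq2 called members of several lists, among them Col5a2, Col6a1, Ctsl, Ctsb and Npc2. Single libraries bear on the medians: leaving out 1 of the 8 at a time turned the sign of 10 list medians, and in 39 of the 46 lists it turned the sign or moved the median by over 1.5 times.

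**Figure D2:**
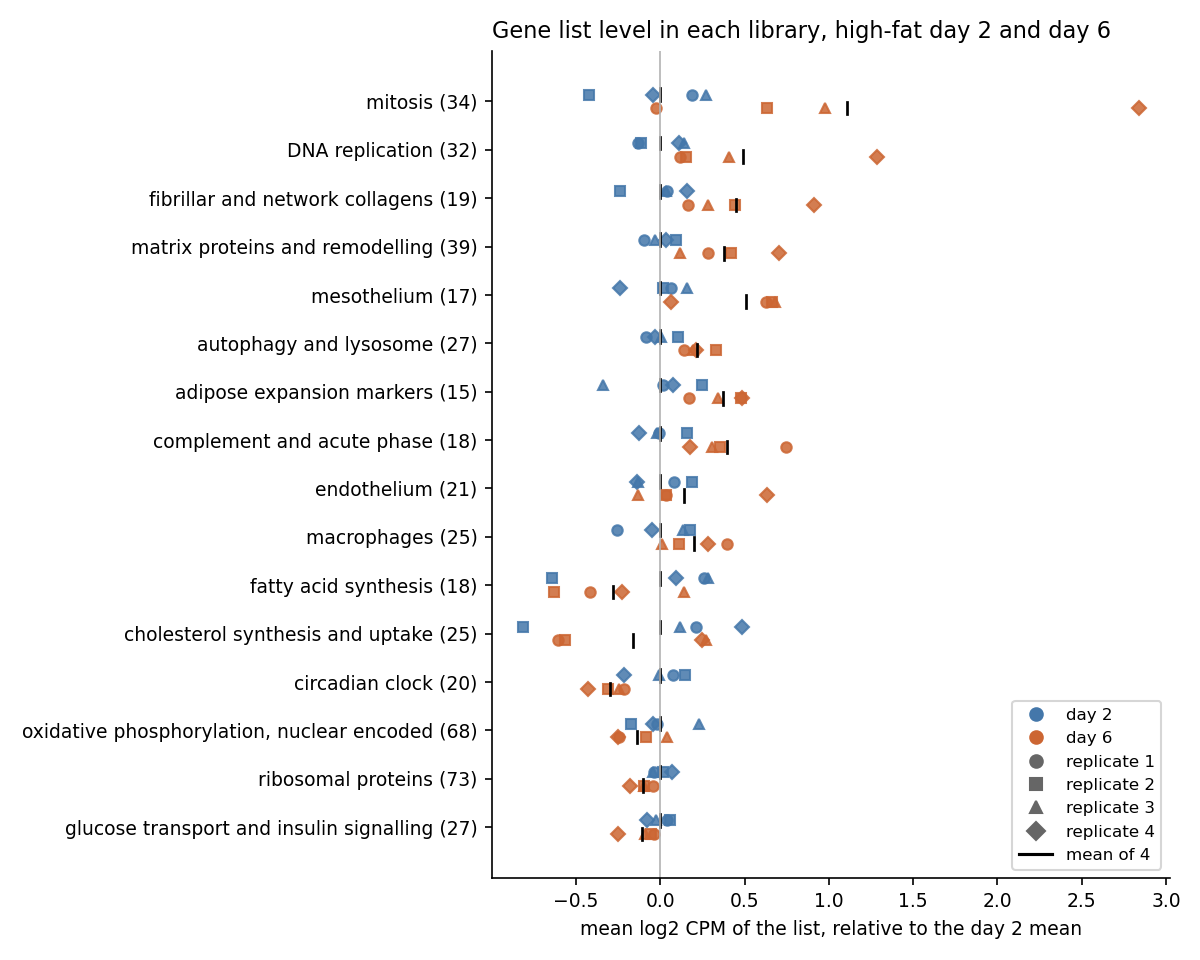
Level of selected gene lists in each library, as the mean log2 CPM of the list relative to the day 2 mean on the x axis, with the number of measured genes in brackets. Blue is day 2 and orange day 6, symbols mark replicates 1 to 4 and black bars the means of 4, and day 6 replicate 4 stands far to the right for mitosis at 2.84.

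Collagen genes lay higher on day 6. Of 19 fibrillar, network and related collagens, 17 had log2 changes above 0 (median 0.60), 12 were higher at an unadjusted p under 0.05 and 6 did not overlap, with 0 lower by either count. The collagen level was 0.040, -0.24, 0.036 and 0.16 on day 2 and 0.16, 0.44, 0.28 and 0.91 on day 6, which left a narrow gap between day 2 replicate 4 and day 6 replicate 1. Col5a2, a regulatory chain of collagen type V fibrils, had the most evidence of them: it stood at 204, 191, 232 and 204 CPM on day 2 and at 314, 359, 299 and 424 CPM on day 6. Col5a2 had a log2 change of 0.75 with an SE of 0.15 and an adjusted p of 0.408 (edgeR). All day 6 libraries were above all day 2 libraries for this gene, and DESeq2 called it with an adjusted p of 0.00234. Col3a1, the chain of the reticular fibrils around fat cells, was at 1382, 1320.4, 1817 and 1349 CPM on day 2 and at 2002, 2276, 1958 and 2875 CPM on day 6, again without overlap, day 2 replicate 3 being closest to day 6. Col3a1 had a log2 change of 0.63 with a 95% interval of 0.19 to 1.08. For Col1a1, the main chain of collagen type I, the values were 221, 221, 335 and 214 CPM on day 2 and 358, 462, 315 and 576 CPM on day 6, with day 2 replicate 3 above day 6 replicate 3. Col1a1 had a log2 change of 0.79 with a 95% interval of 0.14 to 1.43.

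Collagen VI, the beaded-filament collagen abundant around fat cells, varied more between libraries. Its chain Col6a1 was measured at 426, 351, 351 and 546 CPM on day 2 and at 476, 905, 717 and 1112 CPM on day 6, and day 6 replicate 1 fell inside the day 2 range. Col6a1 had a log2 change of 0.94 with an SE of 0.26 and an adjusted p of 0.454 (edgeR). Col6a2 (log2 change of 0.84 with a 95% interval of 0.25 to 1.43) and Col6a3 (log2 change of 0.52 with a 95% interval of -0.13 to 1.17) had the same low day 6 library and the same high one, replicate 4. In Col6a3 the libraries were 261, 157, 261 and 369 CPM on day 2 and 234, 389.9, 280.0 and 596 CPM on day 6, and the interval held 0. The basement membrane chains Col4a1 and Col4a2 had log2 changes of 0.60 and 0.43, and day 6 replicate 4 held 3987 CPM of Col4a1 against 1956 to 2471 CPM in the other day 6 libraries. Col18a1, whose C-terminal fragment is endostatin, was at 182, 182, 176 and 192 CPM on day 2 and at 202, 319.9, 271 and 371 CPM on day 6, a steady day 2 group below every day 6 library. Col18a1 had a log2 change of 0.67 with a 95% interval of 0.21 to 1.13. Without day 6 replicate 4 the collagen median was 0.43 and 5 members were higher at an unadjusted p under 0.05 in place of 12.

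Other matrix genes also lay higher on day 6, again most in replicate 4. Among 39 matrix proteins and remodelling enzymes, 32 had log2 changes above 0 (median 0.37), and 14 were higher and 0 lower at an unadjusted p under 0.05. The level was -0.10, 0.091, -0.033 and 0.037 on day 2 and 0.28, 0.42, 0.12 and 0.71 on day 6, lowest on day 6 in replicate 3, where the collagens were lowest in replicate 1. Fbln2, an elastic-fibre and basement membrane protein, was at 105, 100.1, 128 and 108 CPM on day 2 and at 180.4, 223, 189.6 and 348 CPM on day 6, with no overlap. Fbln2 had a log2 change of 1.09 with an SE of 0.28 and an adjusted p of 0.453 (edgeR). Fbn1, the fibrillin-1 gene whose product also yields the hormone asprosin, was at 179.7, 158, 245 and 219.5 CPM on day 2 and at 257, 328, 354 and 861 CPM on day 6, with replicate 4 over 2-fold above the other day 6 libraries. Fbn1 had a log2 change of 1.16 with a 95% interval of 0.26 to 2.06. Nid1, which links laminin to collagen IV, was at 1077, 1016, 991 and 1045 CPM on day 2 and at 1119.5, 1437, 1333 and 1633 CPM on day 6. Nid1 had a log2 change of 0.42 with a 95% interval of 0.15 to 0.69. Sparc, a collagen-binding matricellular protein, was at 3767, 3506, 2693 and 3036 CPM on day 2 and at 3486, 5561, 3896 and 6039.6 CPM on day 6. Sparc had a log2 change of 0.55 with a 95% interval of 0.13 to 0.96. Nid1 did not overlap, while Sparc in day 2 replicate 1 was above Sparc in day 6 replicate 1. Thbs1, encoding thrombospondin-1, was uneven on day 6, with 45.5, 228, 39.3 and 157 CPM against 26.4, 45.1, 23.3 and 28.1 CPM on day 2, so 2 libraries carried most of its change of 1.91. Timp1, an inhibitor of matrix metalloproteinases, was at 1.08, 1.12, 1.21 and 1.52 CPM on day 2 and at 1.34, 3.95, 3.16 and 8.22 CPM on day 6, with overlap. Timp1 had a log2 change of 1.75 with a 95% interval of 0.47 to 3.04. The matrix median without day 6 replicate 4 was 0.24, with 4 members higher at an unadjusted p under 0.05 in place of 14.

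Markers of cells that make matrix had a median close to 0, with members in both directions. Of 17 adipocyte progenitor and fibroblast markers, 10 had log2 changes above 0 (median 0.077, and 0.20 without day 2 replicate 2). At an unadjusted p under 0.05, 2 were higher and 1 lower. In 3 the days did not overlap, all with day 6 above, beside 2.77% of all genes. Their summed level was 677 to 853 CPM on day 2 and 702 to 905 CPM on day 6. Fap, a serine protease of fibroblasts, was the member with the largest positive difference (at 4.86, 5.71, 7.65 and 8.18 CPM on day 2 and at 9.43, 11.3, 9.86 and 17.6 CPM on day 6; log2 change of 0.82 with a 95% interval of 0.31 to 1.33), and its libraries did not overlap. Cd34, a surface protein of progenitors and endothelium, averaged 122 ± 12 CPM on day 2 and 160.4 ± 57.5 CPM on day 6 (SD, n = 4 each), and Cxcl12, a stromal chemokine, averaged 169 ± 18.1 CPM on day 2 and 166 ± 25.3 CPM on day 6. The part of these cells in the matrix values was not tested.

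Lysosome genes lay higher on day 6 by small and even amounts. Of 27 genes for autophagy and lysosomes, 22 had log2 changes above 0 (median 0.23), 12 were higher at an unadjusted p under 0.05 and 0 lower, and 5 did not overlap. The 5 members with changes below 0 reached -0.28. Of the members named next, Ctsl, Hexa, Lamp1, Becn1 and Npc2 were picked after their values were seen. DESeq2 called Ctsl, Ctsb and Npc2, with adjusted p of 0.0243, 0.04 and 0.0495. The level was -0.081, 0.11, 0.0044 and -0.030 on day 2 and 0.14, 0.33, 0.19 and 0.22 on day 6, with the SD over 4 libraries at 0.080 on day 2 and 0.082 on day 6. Ctsl, the cysteine protease cathepsin L, was at 330.2, 362, 319.7 and 314 CPM on day 2 and at 422, 505, 386 and 468 CPM on day 6. Ctsl had a log2 change of 0.43 with an SE of 0.11 and an adjusted p of 0.418 (edgeR). Ctsb, encoding cathepsin B, was at 1569.5, 1631, 1514 and 1579.9 CPM on day 2 and at 1639, 2363, 2089.7 and 2095 CPM on day 6. Ctsb had a log2 change of 0.38 with a 95% interval of 0.14 to 0.62. Both genes were without overlap, although for Ctsb the step from day 2 replicate 2 to day 6 replicate 1 was only from 1631 to 1639 CPM. Ctsd, encoding the aspartic protease cathepsin D, was at 1509.6, 1144, 1428 and 1505 CPM on day 2 and at 1242, 2173, 1829 and 2073 CPM on day 6, and day 6 replicate 1 lay within the day 2 range. Ctsd had a log2 change of 0.39 with a 95% interval of 0.032 to 0.75. Hexa, a subunit of the lysosomal enzyme that trims gangliosides, was at 85.8, 121, 100.4 and 94.9 CPM on day 2 and at 136, 176, 126 and 142 CPM on day 6, without overlap. Hexa had a log2 change of 0.51 with a 95% interval of 0.19 to 0.84. Lamp1, a glycoprotein of the lysosomal membrane, was at 699.8, 759, 769 and 735 CPM on day 2 and at 819, 944, 865 and 859.9 CPM on day 6. Lamp1 had a log2 change of 0.23 with a 95% interval of 0.040 to 0.43. Becn1, the Beclin 1 gene of autophagosome nucleation, was at 52.9, 56.3, 57 and 60.1 CPM on day 2 and at 64.3, 64.6, 64.5 and 70.7 CPM on day 6, and neither Lamp1 nor Becn1 overlapped between days. Becn1 had a log2 change of 0.22 with a 95% interval of 0.073 to 0.36. Npc2, which carries cholesterol out of the lysosome, was at 422, 530.2, 449 and 383 CPM on day 2 and at 529.9, 884, 564 and 653 CPM on day 6, where day 6 replicate 1 matched the highest day 2 library. Npc2 had a log2 change of 0.56 with a 95% interval of 0.24 to 0.88. Without day 6 replicate 4 the lysosome median was 0.21 and 10 members were higher at an unadjusted p under 0.05, and with day 2 replicate 1 also left out 7 were.

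Some lysosomal enzymes outside the list were also picked after their values were seen. Glb1, encoding the lysosomal beta-galactosidase, was at 27, 32, 25.8 and 26.4 CPM on day 2 and at 39.1, 51.9, 37.9 and 42.6 CPM on day 6. Glb1 had a log2 change of 0.62 with a 95% interval of 0.31 to 0.93. Gusb, encoding beta-glucuronidase, was at 65.8, 70.6, 62 and 65.2 CPM on day 2 and at 80.7, 109, 78.5 and 99.1 CPM on day 6. Gusb had a log2 change of 0.48 with a 95% interval of 0.22 to 0.74. Tpp1, a tripeptidyl peptidase, was at 114, 138, 127 and 122 CPM on day 2 and at 141, 175, 162 and 156 CPM on day 6. Tpp1 had a log2 change of 0.34 with a 95% interval of 0.17 to 0.51. In each of these 3 genes the days did not overlap, and DESeq2 called Tpp1 with an adjusted p of 0.0229. Lysosomal enzymes are also abundant in macrophages, so their markers are given beside these values. Of 25 macrophage markers, 21 had log2 changes above 0 (median 0.22, and 0.12 without day 6 replicate 1), none at an unadjusted p under 0.05, and their sum was 14311 to 19349 CPM on day 2 and 15008 to 18960 CPM on day 6. Lyz2, the lysozyme gene of myeloid cells, was at 288, 495, 439.5 and 364 CPM on day 2 and at 596, 368, 413 and 496 CPM on day 6. Lyz2 had a log2 change of 0.24 with a 95% interval of -0.22 to 0.69. Apoe, which macrophages and fat cells both make, was at 4224, 5352, 3373 and 3615 CPM on day 2 and at 4108, 3267, 3131 and 2319 CPM on day 6. Apoe had a log2 change of -0.37 with a 95% interval of -0.82 to 0.079. The summed macrophage ranges overlapped almost wholly, but Lyz2, at 288 to 596 CPM, was only a small part of the sum. The sum can follow a few far more abundant genes, which need not be particular to macrophages. It thus says little about most of the markers. The mean level, which weights the markers equally, was -0.26, 0.18, 0.13 and -0.051 on day 2. On day 6 it was 0.39, 0.11, 0.0098 and 0.28, with overlap. The part of macrophages in the lysosome values was not tested. Without day 6 replicate 1 the macrophage median was 0.12. Trp53inp2, an autophagy scaffold named among genes of fat growth, was at 1091, 934, 1109.6 and 1043 CPM on day 2 and at 1000.2, 1128, 1389.5 and 1801 CPM on day 6. Trp53inp2 had a log2 change of 0.35 with a 95% interval of -0.069 to 0.77.

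CACGTG is the core of the sequence bound by the TFEB family, known regulators of lysosomal genes, so the promoters of 3 members described above are printed. The search covered the 250 bases before each gene's start in RefSeq (GRCm38.p6), and the motif reads the same on both strands. Of the 27 members 19 matched a promoter, and the motif was found in 6 of these (31.6%) and in 6.86% of 27025 genes. Capitals mark each CACGTG, and a match is no proof of binding.
Ctsl, chr13:64370711-64370770, minus strand: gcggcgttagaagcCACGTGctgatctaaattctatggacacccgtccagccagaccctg
Lamp1, chr8:13159100-13159160, plus strand: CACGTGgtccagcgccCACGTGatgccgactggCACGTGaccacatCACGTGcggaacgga
Ctsd, chr7:142387893-142387952, minus strand: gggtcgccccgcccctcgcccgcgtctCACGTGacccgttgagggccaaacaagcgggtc
Lamp1 holds 4 copies in this stretch, while Ctsl and Ctsd hold 1 each.

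**Figure D3:**
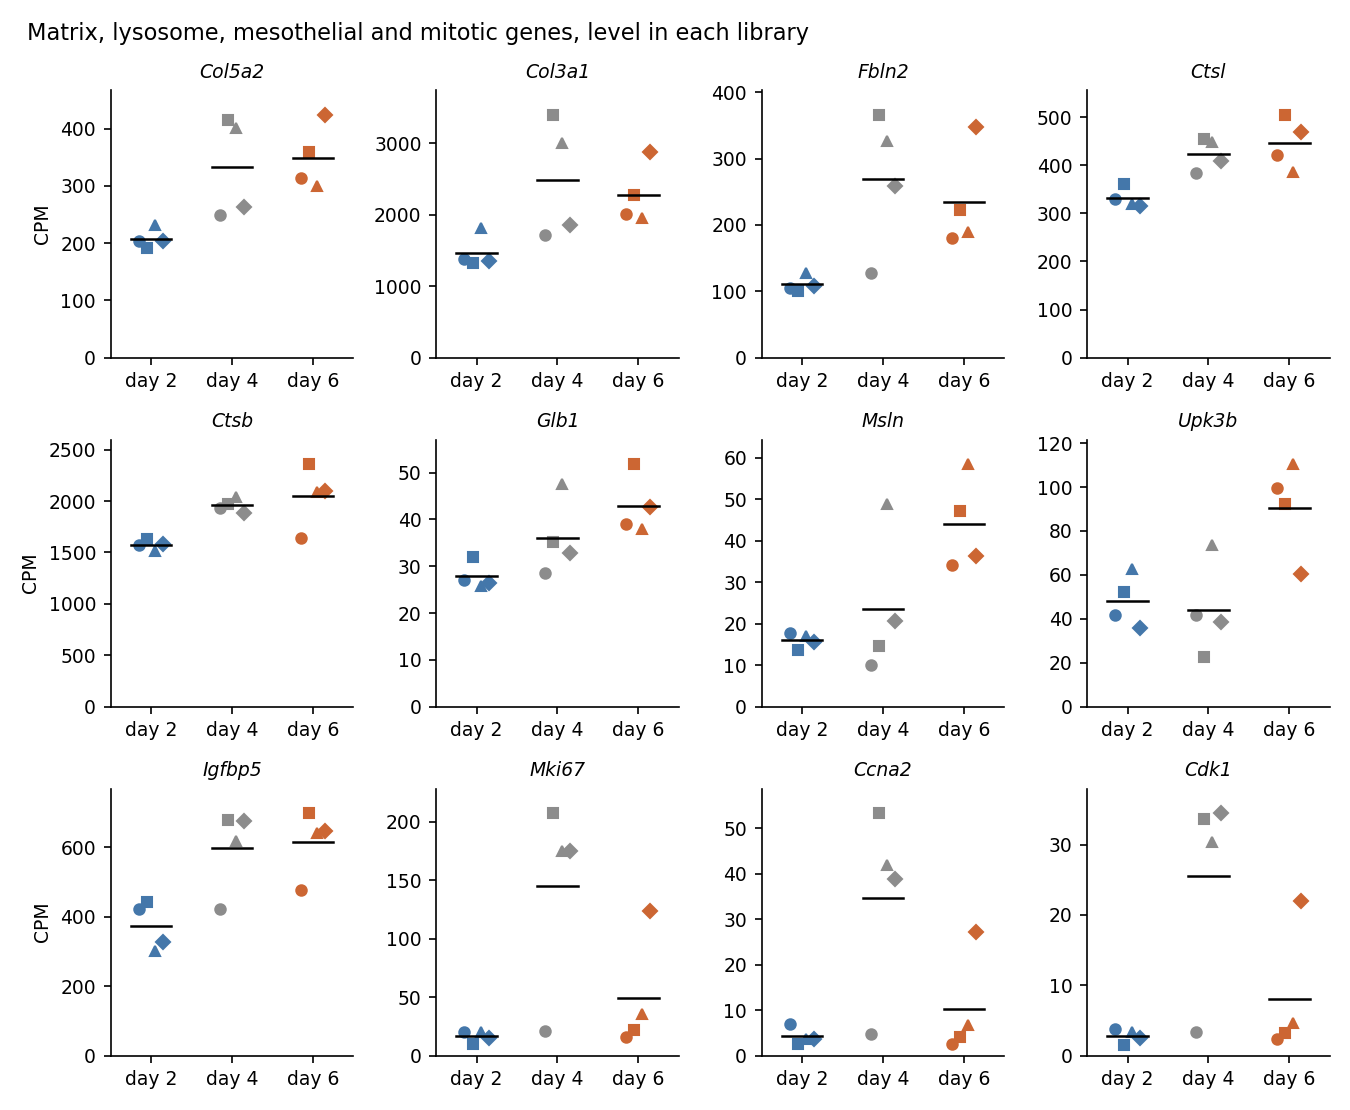
CPM (y axis, from 0) of 12 genes for matrix, lysosome, mesothelium and mitosis in the libraries of days 2, 4 and 6. Blue is day 2, grey day 4 and orange day 6, circle, square, triangle and diamond are replicates 1 to 4 and black bars means of 4. Ctsl, Col5a2 and Msln show day 6 wholly above day 2, and Mki67 is carried by day 6 replicate 4.

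Mesothelial markers lay higher on day 6, in 3 libraries strongly. All 17 markers of the surface layer had log2 changes above 0 (median 0.49), 5 were higher at an unadjusted p under 0.05 and 3 did not overlap. Their sum was 523 to 685 CPM on day 2 and 863 to 1089 CPM on day 6, without overlap. Igfbp5 alone made up 53.0% to 70.2% of the sum in each library, and without it the other 16 markers summed to 195 to 268 CPM on day 2 and 274 to 415 CPM on day 6, with day 6 replicate 4 only just above the day 2 range. The mean level, which weights the markers equally, was 0.067, 0.015, 0.16 and -0.24 on day 2 and 0.63, 0.66, 0.68 and 0.064 on day 6, where day 6 replicate 4 fell among the day 2 libraries. Msln, the mesothelin gene, was at 17.8, 13.6, 17 and 15.5 CPM on day 2 and at 34.2, 47.1, 58.5 and 36.2 CPM on day 6. Msln had a log2 change of 1.48 with an SE of 0.41 and an adjusted p of 0.454 (edgeR). Upk3b, a uroplakin of mesothelium, was at 41.5, 52.2, 62.6 and 36 CPM on day 2 and at 99.4, 92.4, 111 and 60.3 CPM on day 6. Upk3b had a log2 change of 0.89 with a 95% interval of 0.26 to 1.52. Igfbp5, an insulin-like growth factor binding protein that other stromal cells make as well, was at 423, 442, 302 and 329 CPM on day 2 and at 476, 699, 641 and 648 CPM on day 6 and was called by DESeq2. Igfbp5 had a log2 change of 0.72 with a 95% interval of 0.34 to 1.11. The keratin gene Krt19 was at 14, 14.2, 17.5 and 10.4 CPM on day 2 and at 20.7, 18.6, 19.1 and 10.2 CPM on day 6, low in day 6 replicate 4. Krt19 had a log2 change of 0.27 with a 95% interval of -0.38 to 0.91. Msln is placed by the other days: it averaged 67.4 ± 9.98 CPM on chow, 16 ± 1.85 CPM on day 2, 23.6 ± 17.4 CPM on day 4, 44 ± 11.2 CPM on day 6 and 45.6 ± 24.7 CPM on day 14 (SD, n = 4 each). Upk3b averaged 144 ± 27.4 CPM on chow, 48.1 ± 11.8 CPM on day 2, 44.1 ± 21.3 CPM on day 4 and 90.7 ± 21.6 CPM on day 6, so for both genes the chow mean lay above the means of days 2 and 6. Leaving out each of the 8 libraries in turn kept the mesothelial median between 0.40 and 0.61.

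Cell division genes were high in a single day 6 library. All 34 mitosis genes had log2 changes above 0 (median 1.60), and 29 were higher at an unadjusted p under 0.05, beside 5.49% of all genes. Only 1 did not overlap, which is near the 2.77% of all genes with day 6 above. The level was 0.19, -0.42, 0.27 and -0.043 on day 2 and -0.023, 0.63, 0.98 and 2.84 on day 6, so day 6 replicate 1 fell within the day 2 range and replicate 4 stood well above the rest. Mki67, the gene of the proliferation antigen Ki-67, was at 20.5, 9.63, 20.4 and 15.1 CPM on day 2 and at 15.7, 21.5, 35.7 and 123 CPM on day 6. Mki67 had a log2 change of 1.64 with an SE of 0.66 and an adjusted p of 0.579 (edgeR). Ccna2, the S and G2 phase cyclin A2, was at 7.01, 2.5, 3.64 and 3.74 CPM on day 2 and at 2.57, 4.19, 6.7 and 27.3 CPM on day 6. Ccna2 had a log2 change of 1.5 with a 95% interval of 0.017 to 2.99. Cdk1, the mitotic kinase, was at 3.78, 1.58, 3.37 and 2.57 CPM on day 2 and at 2.3, 3.24, 4.65 and 22 CPM on day 6. Cdk1 had a log2 change of 1.63 with a 95% interval of 0.11 to 3.15. Top2a, the topoisomerase that untangles chromosomes, was at 11.9, 4.84, 11.6 and 8.3 CPM on day 2 and at 8.43, 12, 17.2 and 68.7 CPM on day 6. Top2a had a log2 change of 1.62 with a 95% interval of 0.18 to 3.06. In each of these 4 genes day 6 replicate 4 exceeded the next library of either day by over 3-fold, and the others of day 6 lay within or moderately above the day 2 range. Racgap1, which is needed for cytokinesis, was the member without overlap, at 6.47, 4.43, 6.29 and 6.08 CPM on day 2 and at 6.67, 8.54, 9.86 and 29 CPM on day 6. Racgap1 had a log2 change of 1.26 with a 95% interval of 0.23 to 2.3. Nuf2 and Pimreg, a kinetochore protein and a mitotic regulator, had log2 changes of 1.99 and 1.51. Without day 6 replicate 4 the mitosis median was 0.53, all 34 genes still had log2 changes above 0, and 0 had an unadjusted p under 0.05.

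DNA replication genes were also highest in day 6 replicate 4 as a group. All 32 had log2 changes above 0 (median 0.47), 7 were higher at an unadjusted p under 0.05, and the level was -0.13, -0.11, 0.14 and 0.11 on day 2 and 0.12, 0.15, 0.41 and 1.29 on day 6. Uhrf1, which maintains DNA methylation behind the replication fork, was at 3.78, 3.26, 5.61 and 6.31 CPM on day 2 and at 4.94, 5.41, 11.4 and 24.5 CPM on day 6. Uhrf1 had a log2 change of 1.26 with a 95% interval of 0.13 to 2.38. Pcna, the sliding clamp, was at 45.9, 32.8, 36.6 and 42.9 CPM on day 2 and at 39.1, 39.2, 45.3 and 55 CPM on day 6. Pcna had a log2 change of 0.20 with a 95% interval of -0.081 to 0.48. Mcm7, of the replicative helicase, was at 28.6, 32.9, 26 and 22.7 CPM on day 2 and at 39.4, 26.5, 33.4 and 34.6 CPM on day 6. Mcm7 had a log2 change of 0.28 with a 95% interval of 0.0011 to 0.57 and, unlike the group, its highest value in day 6 replicate 1. Without day 6 replicate 4 the median was 0.13, and 1 member was higher at an unadjusted p under 0.05.

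Ccl2 and several endothelial and pericyte genes were also highest in day 6 replicate 4, while smooth muscle genes went both ways. Ccl2, the monocyte-attracting chemokine, was at 4.32, 2.09, 3.94 and 4.68 CPM on day 2 and at 3.14, 10.6, 8.28 and 37.6 CPM on day 6, with its highest value in day 6 replicate 4. Ccl2 had a log2 change of 2.08 with a 95% interval of 0.65 to 3.52. Endothelial markers had a median change of 0.26 with 16 of 21 positive, and without this library the median was 0.015. Cdh5, the VE-cadherin gene, was at 245, 266, 253 and 226 CPM on day 2 and at 288, 295, 235 and 591 CPM on day 6, Pecam1 was at 222, 238, 201 and 174 CPM on day 2 and at 216, 211, 171 and 411 CPM on day 6, and Ramp2, a receptor subunit for adrenomedullin, was at 85.8, 76.5, 67.5 and 70.6 CPM on day 2 and at 70.3, 67.8, 75.3 and 103 CPM on day 6. Cdh5 had a log2 change of 0.51 with a 95% interval of -0.057 to 1.07. Of 14 smooth muscle and pericyte markers 7 had log2 changes above 0 and 7 below (median 0.037, and -0.10 without day 6 replicate 4), 2 were higher and 1 lower at an unadjusted p under 0.05, and all 14 overlapped. Rgs5, a pericyte marker, was at 244, 211, 200.5 and 203 CPM on day 2 and at 214, 212, 214 and 388 CPM on day 6. Pdgfrb, a receptor of pericytes and fibroblasts, reached 124 CPM in replicate 4 against 70.0 to 101 CPM in the other day 6 libraries. Acta2, smooth muscle actin, was at 73.9, 65.7, 43 and 65.2 CPM on day 2 and at 67.9, 137, 129 and 174 CPM on day 6. Acta2 had a log2 change of 1.06 with a 95% interval of 0.24 to 1.88. Mylk averaged 151 ± 22.2 CPM on day 2 and 189 ± 18.4 CPM on day 6 (SD, n = 4 each), with its highest value, 210 CPM, in day 6 replicate 1. Lmod1, a leiomodin of smooth muscle, had the most negative change of the list, -0.89, with means of 7.29 CPM on day 2 and 3.95 CPM on day 6. The part of these cells in the mitosis values was not tested.

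GATTGG, with its reverse complement CCAATC, is the form of the CCAAT box bound by NF-Y, a factor known at promoters of mitotic genes. In the same 250-base windows it was found, on either strand, in 17 of the 27 mitosis members that matched a promoter (63.0%) and in 16.6% of 27025 genes. The promoters shown are those of members given above or named with them, with each GATTGG or CCAATC in capitals.
Hmmr, chr11:40733438-40733497, minus strand: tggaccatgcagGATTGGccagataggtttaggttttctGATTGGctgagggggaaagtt
Kif18b, chr11:102925145-102925204, minus strand: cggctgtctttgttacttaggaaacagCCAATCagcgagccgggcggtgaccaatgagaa
Racgap1, chr15:99651657-99651716, minus strand: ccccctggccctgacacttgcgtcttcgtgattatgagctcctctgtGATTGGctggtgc
Hmmr, the hyaluronan-mediated motility receptor, was at 1.08, 0.56, 1.29 and 0.935 CPM on day 2 and at 0.996, 1.86, 3.07 and 11.4 CPM on day 6. Hmmr had a log2 change of 2.2 with a 95% interval of 0.67 to 3.73. Kif18b, a kinesin that shortens spindle microtubules, was at 0.54, 0.611, 1.1 and 0.117 CPM on day 2 and at 0.69, 1.58, 1.95 and 8.85 CPM on day 6. Kif18b had a log2 change of 2.29 with a 95% interval of 0.44 to 4.14.

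Day 4 lies between the compared days and shares no library with either, but each comparison with it shares the libraries of day 2 or of day 6, so values are set side by side only. Between day 4 and day 2, 366 genes (2.4%) were called, 327 higher and 39 lower, and between day 6 and day 4 0 genes (0%) were called, with 2492 (16.3%) at an unadjusted p under 0.05. All 34 mitosis genes and 19 of 32 replication genes were called higher on day 4. The mitosis median was 3.14 for day 4 minus day 2 and -1.48 for day 6 minus day 4, and Mki67 averaged 16.4 ± 5.17 CPM on day 2, 145 ± 83.7 CPM on day 4, 49.1 ± 50.3 CPM on day 6 and 18.7 ± 8.06 CPM on day 14 (SD, n = 4 each). Of the collagens, 8 of 19 were called higher on day 4, with medians of 0.89 for day 4 minus day 2 and -0.31 for day 6 minus day 4. Col5a2 averaged 208 ± 17.1 CPM on day 2, 332 ± 87.7 CPM on day 4, 349 ± 56.3 CPM on day 6 and 293 ± 28 CPM on day 14, and its day 4 difference of 0.67 had an adjusted p of 0.0412 (edgeR). For mesothelium the order was another: the median was -0.23 for day 4 minus day 2 and 0.83 for day 6 minus day 4. Lysosome genes had medians of 0.13 and 0.074 for the same steps. Ctsl averaged 417 ± 53.8 CPM on chow, 332 ± 21.2 CPM on day 2, 423 ± 33.4 CPM on day 4, 445 ± 52 CPM on day 6 and 437 ± 43.1 CPM on day 14, so day 2 was its lowest mean. On chow the mean list level was 0.11 for autophagy and lysosome, 0.29 for matrix proteins and -0.14 for collagens. On day 6 these levels were 0.22, 0.38 and 0.45, all relative to the day 2 mean. Cholesterol synthesis genes had medians of 0.56 and -0.77.

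**Figure D4:**
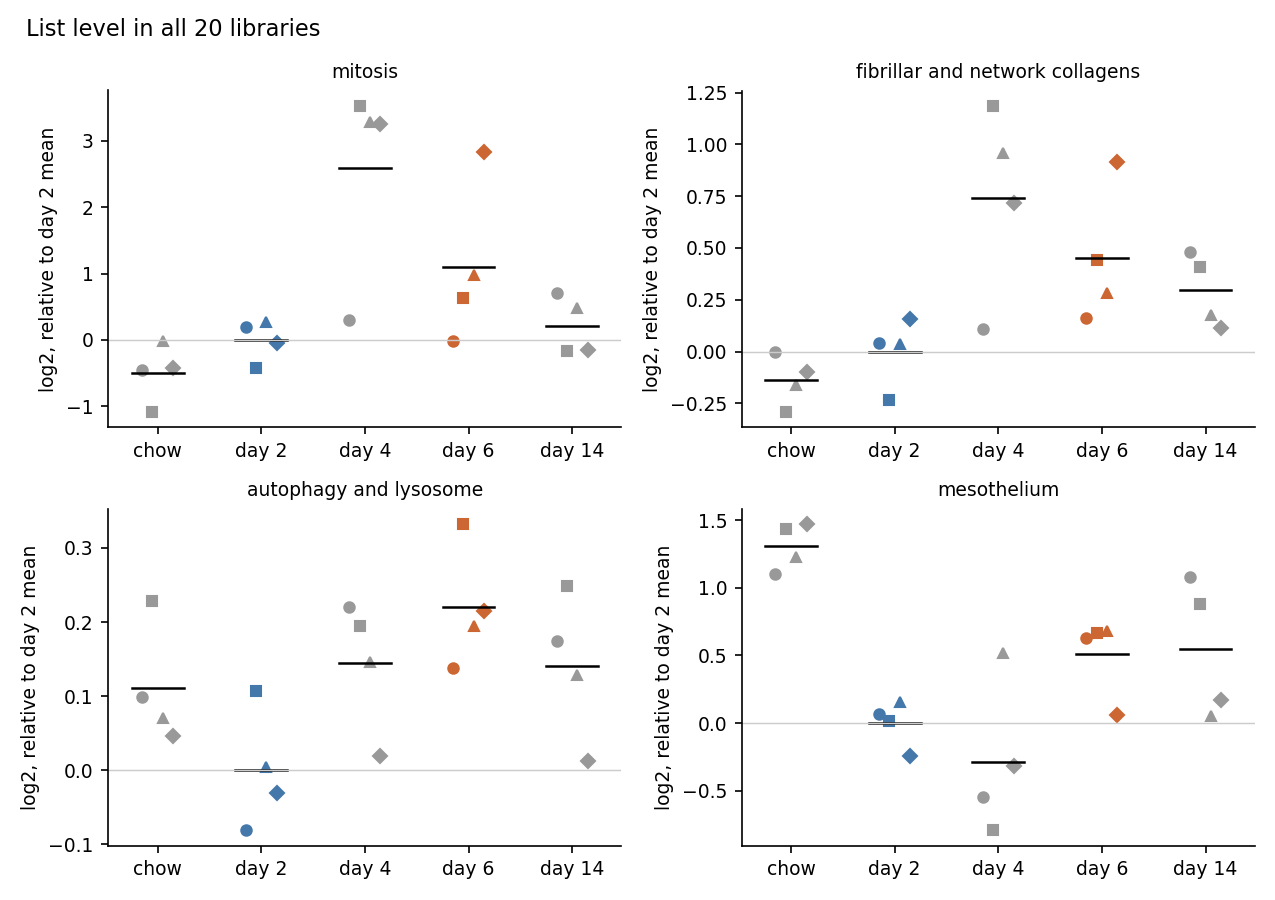
Level of 4 gene lists (mean log2 CPM relative to the day 2 mean, y axis) in all 20 libraries from chow to day 14. Blue is day 2, orange day 6 and grey the other days, circle, square, triangle and diamond are replicates 1 to 4 and black bars means of 4. Mitosis is highest on day 4, with a mean level of 2.59 against 1.11 on day 6, and the mesothelial level is lowest on day 4 at -0.28.

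Adipose expansion markers, genes whose expression is known to follow the growth of fat cells, were mixed. Of 15, 12 had log2 changes above 0 (median 0.26, and 0.11 without day 6 replicate 4) and 3 did not overlap, all higher. Fgf1, a growth factor known to be induced in fat by a high-fat diet, was at 66.9, 78.2, 83.9 and 67.5 CPM on day 2 and at 109, 96.2, 115 and 99.2 CPM on day 6. Its chow mean was higher than either: it averaged 134 ± 5.03 CPM on chow, 74.1 ± 8.34 CPM on day 2 and 105 ± 8.56 CPM on day 6 (SD, n = 4 each). Fgf1 had a log2 change of 0.49 with an SE of 0.12 and an adjusted p of 0.411 (edgeR). Bmp3, a BMP family ligand, was at 7.01, 6.37, 4.77 and 7.01 CPM on day 2 and at 8.05, 30.2, 19.3 and 28.6 CPM on day 6. Bmp3 had a log2 change of 1.83 with a 95% interval of 0.91 to 2.74. Neither overlapped between days, and for Bmp3 day 6 replicate 1 stood close to day 2. Mest, a marker of fat cell growth, lay lower on average: it stood at 631, 300.2, 398 and 457 CPM on day 2 and at 391, 131, 256 and 478 CPM on day 6, with wide overlap. Mest had a log2 change of -0.50 with a 95% interval of -1.26 to 0.26. Cav1, the coat protein of caveolae, was at 4244, 4019.9, 3636 and 4194 CPM on day 2 and at 4090.0, 4178, 4302 and 4086 CPM on day 6. Cav1 had a log2 change of 0.050 with a 95% interval of -0.20 to 0.30. Ehd2, which sits at the neck of caveolae, was at 1853, 1658, 1576 and 1707 CPM on day 2 and at 1505, 1975, 1914 and 1788 CPM on day 6, and both Cav1 and Ehd2 overlapped widely. Ehd2 had a log2 change of 0.081 with a 95% interval of -0.17 to 0.33. Npr3, the natriuretic peptide clearance receptor, was at 1674, 1251, 811 and 2133 CPM on day 2 and at 1103, 1686, 1741 and 1834 CPM on day 6. Npr3 had a log2 change of 0.12 with a 95% interval of -0.48 to 0.71. Sncg, the gamma-synuclein gene expressed in fat cells, was chosen after its values were seen and was at 471, 637, 346 and 485 CPM on day 2 and at 713, 1043, 1090.1 and 776 CPM on day 6, without overlap. Sncg had a log2 change of 0.90 with a 95% interval of 0.45 to 1.35.

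Adipokines, the secreted products of fat cells, overlapped between days. Of 15 measured, 9 had log2 changes above 0 (median 0.21, and 0.073 without day 6 replicate 4). Lep, encoding the satiety hormone leptin, was at 1589, 1002, 1019 and 2118 CPM on day 2 and at 927, 1399, 2187 and 2535 CPM on day 6. Lep had a log2 change of 0.30 with a 95% interval of -0.35 to 0.95. Adipoq, encoding adiponectin, was at 2071, 4114, 2352 and 1928 CPM on day 2 and at 3672, 4789, 3313 and 2038 CPM on day 6. Adipoq had a log2 change of 0.40 with a 95% interval of -0.24 to 1.04. Cfd, encoding adipsin (complement factor D), was at 7199, 12858, 10066 and 5873 CPM on day 2 and at 11008, 7030.3, 4893 and 1020.1 CPM on day 6, at its lowest in day 6 replicate 4. Cfd had a log2 change of -0.59 with a 95% interval of -1.8 to 0.62. Angptl4, an inhibitor of lipoprotein lipase, was at 287, 476, 259 and 290.0 CPM on day 2 and at 456, 778, 392 and 506 CPM on day 6. Angptl4 had a log2 change of 0.70 with a 95% interval of 0.20 to 1.2. Rbp4, the retinol carrier, was at 397, 286, 332 and 430.4 CPM on day 2 and at 338, 677, 567 and 564 CPM on day 6. Rbp4 had a log2 change of 0.57 with a 95% interval of 0.13 to 1.01. For both, day 6 replicate 2 was the highest library. Among retinoid genes, Cyp26b1, which degrades retinoic acid, was at 1.08, 4.99, 1.86 and 1.17 CPM on day 2 and at 5.25, 6.2, 1.21 and 0.69 CPM on day 6, with 2 high day 6 libraries and 1 high on day 2, and Aldh1a7 averaged 245 ± 76.1 CPM on day 2 and 273 ± 85.9 CPM on day 6 (SD, n = 4 each). Cyp26b1 had a log2 change of 0.39 with a 95% interval of -1.52 to 2.29.

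Most complement and acute-phase genes lay higher on day 6. Of 18 complement and acute-phase genes, 14 had log2 changes above 0 (median 0.25, and 0.38 without day 2 replicate 2), 7 were higher at an unadjusted p under 0.05, and the level was -0.0084, 0.16, -0.022 and -0.13 on day 2 and 0.75, 0.35, 0.31 and 0.18 on day 6. Alb, the serum albumin gene, was at 7.55, 7.74, 9.06 and 8.07 CPM on day 2 and at 42.3, 20.6, 20.3 and 10.2 CPM on day 6, without overlap, and it was the 1 gene called when day 6 replicate 4 was left out (log2 change 1.76, adjusted p = 0.0252). Alb had a log2 change of 1.51 with an SE of 0.31 and an adjusted p of 0.408 (edgeR). Serpina3n, a serine protease inhibitor, was at 438, 433, 363 and 338 CPM on day 2 and at 543, 804, 562 and 610.1 CPM on day 6. Serpina3n had a log2 change of 0.68 with a 95% interval of 0.34 to 1.02. Hp, encoding haptoglobin, was at 2662, 4001, 2008 and 2065 CPM on day 2 and at 3639, 2822, 2346 and 2712 CPM on day 6. Hp, the most abundant of those named here, overlapped widely and had a log2 change of 0.10 with a 95% interval of -0.33 to 0.53. Mup3, a major urinary protein gene, was at 0.54, 0.306, 0.644 and 0.234 CPM on day 2 and at 5.29, 0.909, 0.837 and 1.73 CPM on day 6, highest in day 6 replicate 1, where Alb was also highest. Mup3 had a log2 change of 2.34 with a 95% interval of 0.88 to 3.81. Saa3, the serum amyloid A of fat and macrophages, was at 2.16, 6.52, 4.77 and 3.27 CPM on day 2 and at 13.3, 7.35, 4.28 and 21.7 CPM on day 6. Saa3 had a log2 change of 1.35 with a 95% interval of 0.33 to 2.37. Alb, Mup3 and Saa3 were at low levels, while Hp and Serpina3n were abundant. Serpina3n and Mup3 have near-identical family members so reads may have been shared out among copies, and these values are uncertain.

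Genes of fatty acid synthesis were lower on average, with large spread within both days. Of 18, 3 had log2 changes above 0 (median -0.35), and 1, Srebf1, was lower at an unadjusted p under 0.05. Srebf1, encoding the transcription factor of lipogenesis SREBP-1, was at 775, 610.0, 759 and 718 CPM on day 2 and at 515, 433, 592 and 386 CPM on day 6, without overlap. Srebf1 had a log2 change of -0.57 with an SE of 0.17 and an adjusted p of 0.475 (edgeR). Known targets of SREBP-1 overlapped: Fasn, fatty acid synthase, was at 10673, 2332, 9905 and 11042 CPM on day 2 and at 4427, 3846, 11643 and 6689.7 CPM on day 6. Fasn had a log2 change of -0.35 with a 95% interval of -1.33 to 0.63. Scd1, stearoyl-CoA desaturase, was at 73310.2, 56166, 67693 and 42748 CPM on day 2 and at 44758, 34877, 53296 and 61739 CPM on day 6. Scd1 had a log2 change of -0.30 with a 95% interval of -0.84 to 0.24. Day 2 replicate 2 held the lowest Fasn and day 6 replicate 3 the highest. The level of the list was 0.26, -0.64, 0.29 and 0.092 on day 2 and -0.42, -0.63, 0.14 and -0.22 on day 6, and its median lay between -0.52 and -0.19 as each library was left out. Cholesterol synthesis had 6 of 25 positive with a median of -0.19, and day 2 replicate 2 was again the lowest at -0.81, so the median was -0.45 without it and -0.018 without day 2 replicate 4. Insig1, which holds back the SREBP pathway and is itself its target, was at 568, 128, 660.1 and 781 CPM on day 2 and at 194, 253, 585 and 469.7 CPM on day 6. Insig1 had a log2 change of -0.51 with a 95% interval of -1.48 to 0.46. Hmgcs1, an early enzyme of the pathway, was at 684, 283, 649 and 846 CPM on day 2 and at 441, 331, 728 and 626 CPM on day 6. Hmgcs1 had a log2 change of -0.21 with a 95% interval of -0.89 to 0.47.

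Fat storage and release genes differed little. Lpl, the lipoprotein lipase that supplies fatty acids, averaged 15383 ± 2602 CPM on day 2 and 15392 ± 1957 CPM on day 6 (SD, n = 4 each), and Fabp4, the fatty acid carrier, averaged 10572 ± 1847 CPM on day 2 and 11737 ± 2174 CPM on day 6. Of 20 triglyceride synthesis and uptake genes 9 had log2 changes above 0 (median -0.045, and 0.030 without day 6 replicate 4), and of 21 lipolysis and lipid droplet genes 9, with a median of -0.063 (-0.011 without day 6 replicate 4). Cidec, which fuses lipid droplets, averaged 3308 ± 721 CPM on day 2 and 3947 ± 670.1 CPM on day 6, and Plin4, a droplet coat protein, averaged 5133 ± 363 CPM on day 2 and 4913 ± 687 CPM on day 6. Plin5, which links droplets to mitochondria, was at 15.1, 15.5, 20.5 and 17.4 CPM on day 2 and at 12, 9.84, 13.6 and 10.5 CPM on day 6, lower in every day 6 library. Plin5 had a log2 change of -0.61 with a 95% interval of -1.07 to -0.15. Among 25 genes of fatty acid oxidation 10 were positive with a median of -0.038 (0.0090 without day 2 replicate 3), and Acadm averaged 457 ± 38.3 CPM on day 2 and 473 ± 37 CPM on day 6. Cpt1a, the gate for fatty acids into mitochondria, was at 237, 141, 175 and 286 CPM on day 2 and at 162, 127, 156 and 155 CPM on day 6, where day 2 replicate 2 lay inside the day 6 range. Cpt1a had a log2 change of -0.48 with a 95% interval of -0.81 to -0.14. Branched-chain amino acid genes gave 11 of 19 positive with a median of 0.052 (-0.075 without day 2 replicate 4), Aldh6a1 averaging 511 ± 155 CPM on day 2 and 552 ± 111 CPM on day 6 and Ivd 303 ± 86.7 CPM on day 2 and 336 ± 69.7 CPM on day 6.

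Mitochondrial genes were slightly lower in many members. Of 68 nuclear genes of oxidative phosphorylation, 63 had log2 changes below 0 (median -0.15). At an unadjusted p under 0.05, 5 were lower, beside 2.54% of all genes, and without day 6 replicate 4 the 5 became 0. In 3 the days did not overlap, with day 6 below, beside 1.79% of all genes. All 25 citrate cycle genes had log2 changes below 0 (median -0.14), 1 of them at an unadjusted p under 0.05. That median was -0.070 without day 2 replicate 3 and -0.24 without day 2 replicate 2, and 3 members were positive without day 6 replicate 4. The oxidative phosphorylation median lay between -0.21 and -0.091 as each library was left out. Atp5b, the catalytic subunit of ATP synthase, averaged 2195 ± 341 CPM on day 2 and 2019 ± 198 CPM on day 6 (SD, n = 4 each), Atp5a1 1081 ± 139 CPM on day 2 and 947 ± 78 CPM on day 6, Cs, citrate synthase, 862 ± 146 CPM on day 2 and 705 ± 74 CPM on day 6 and Pcx, pyruvate carboxylase, 2562 ± 412 CPM on day 2 and 2249.7 ± 366 CPM on day 6. Cox5b, a subunit of cytochrome c oxidase, was at 201, 182, 242 and 205 CPM on day 2 and at 157, 182, 182 and 147 CPM on day 6, with overlap. Cox5b had a log2 change of -0.31 with a 95% interval of -0.56 to -0.063. With library size scaling the median of all genes was -0.0169. Transcripts encoded by the mitochondrial genome had 6 of 13 positive with a median of -0.11 (-0.013 without day 6 replicate 1), none of them at an unadjusted p under 0.05. The most abundant, mt-Co1 and mt-Cytb, averaged 17778 ± 3250.2 CPM on day 2 and 21459 ± 3475 CPM on day 6 and 10159.7 ± 2019.6 CPM on day 2 and 12869 ± 2442 CPM on day 6, with overlap. Only in mt-Co2 and mt-Co3, at far lower levels, did the days not overlap, with day 6 below: mt-Co2 averaged 162 CPM on day 2 and 132 CPM on day 6 (log2 change -0.30) and mt-Co3 averaged 197 and 152 CPM (log2 change -0.38). The coactivator Ppargc1a was at 12.4, 13.2, 23.8 and 11.9 CPM on day 2 and at 13.1, 7.35, 13.2 and 7.72 CPM on day 6, high in day 2 replicate 3, the library that also held the most Cox8b, 46.8 CPM, a subunit of brown and beige fat and muscle. Ppargc1a had a log2 change of -0.62 with a 95% interval of -1.35 to 0.11. Among 11 thermogenic genes 4 were positive with a median of -0.092, and -0.48 without day 6 replicate 4.

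Most glucose uptake and insulin genes were slightly lower. Of 27, 4 had log2 changes above 0 (median -0.10, and -0.045 without day 6 replicate 4). At an unadjusted p under 0.05, 0 were higher and 1 lower, beside 5.49% and 2.54% of all genes. The days did not overlap in 2 members with day 6 above and 2 with day 6 below, beside 2.77% and 1.79% of all genes. Slc2a4, encoding GLUT4, was at 252, 254, 241 and 199 CPM on day 2 and at 209.6, 285, 246 and 176 CPM on day 6, with wide overlap between the days. Slc2a4 had a log2 change of -0.046 with a 95% interval of -0.40 to 0.31. Trarg1, which regulates GLUT4 trafficking, was at 758, 587, 667 and 782 CPM on day 2 and at 502, 590.0, 654 and 624 CPM on day 6. Trarg1 had a log2 change of -0.24 with a 95% interval of -0.49 to 0.017. Sort1, the sortilin of GLUT4 vesicles, averaged 681 ± 73.5 CPM on day 2 and 747 ± 126 CPM on day 6 (SD, n = 4 each). Of 17 glycolysis genes 4 had log2 changes above 0 (median -0.062, and -0.0027 without day 2 replicate 4). Gpi1, glucose-6-phosphate isomerase, was at 258, 233, 266 and 306 CPM on day 2 and at 219, 216, 206 and 189 CPM on day 6, lower in every day 6 library, and DESeq2 called it with an adjusted p of 0.0169. Gpi1 had a log2 change of -0.36 with an SE of 0.089 and an adjusted p of 0.411 (edgeR). Aldoa, aldolase A, averaged 1872 ± 399 CPM on day 2 and 1563 ± 218 CPM on day 6 and Pfkfb3, which makes the activator of phosphofructokinase, 1583 ± 187 CPM on day 2 and 1518 ± 209 CPM on day 6. Adipogenic regulators had 2 of 15 positive with a median of -0.11 (-0.056 without day 2 replicate 2): Pparg, the master regulator of fat cells, was at 337, 307, 301 and 349 CPM on day 2 and at 248, 208, 324 and 263 CPM on day 6. Pparg had a log2 change of -0.31 with a 95% interval of -0.67 to 0.049. Cebpa averaged 982 ± 81.4 CPM on day 2 and 921 ± 160.4 CPM on day 6.

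Circadian clock genes were lower in all day 6 libraries as a group, by a narrow margin. Of 20, 15 had log2 changes below 0 (median -0.37), 4 were lower and 1 higher at an unadjusted p under 0.05 (2 and 1 without day 6 replicate 4), and the level was 0.074, 0.15, -0.0076 and -0.21 on day 2 and -0.22, -0.31, -0.24 and -0.43 on day 6. Bhlhe40, a repressor of the clock, was at 91.2, 62.9, 62.4 and 86 CPM on day 2 and at 32.9, 50.5, 36.8 and 33 CPM on day 6, without overlap. Bhlhe40 had a log2 change of -0.96 with a 95% interval of -1.58 to -0.34. Dbp, an output factor of the clock with a strong daily rhythm, was at 44.8, 73, 27.7 and 20.6 CPM on day 2 and at 32.8, 21.5, 15.2 and 10.9 CPM on day 6. Dbp had a log2 change of -1.04 with a 95% interval of -2.29 to 0.21. Tef, its relative, was at 214, 255, 177 and 125 CPM on day 2 and at 187, 131, 125 and 100.4 CPM on day 6. Tef had a log2 change of -0.50 with a 95% interval of -1.09 to 0.083. Nr1d1, encoding REV-ERB alpha, was at 197, 258, 163 and 181 CPM on day 2 and at 212, 173, 173 and 107 CPM on day 6. Nr1d1 had a log2 change of -0.26 with a 95% interval of -0.84 to 0.31. Arntl, encoding BMAL1, was at 16.2, 10.3, 24.5 and 23.6 CPM on day 2 and at 18.4, 21.7, 32.1 and 25.7 CPM on day 6. Arntl had a log2 change of 0.37 with a 95% interval of -0.46 to 1.19. Dbp and Tef thus had negative changes and Arntl a positive one, but all 3 overlapped and had an interval holding 0. Bhlhe40, Dbp and Arntl were picked after their values were seen. Whether the hour of collection differed between the days is not given in the sources used here.

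Interferon, chemokine and immune cell lists overlapped between days. Of 22 interferon response genes 21 had log2 changes above 0 (median 0.33), and 5 were higher at an unadjusted p under 0.05, or 2 without day 6 replicate 4. Bst2, the antiviral tetherin, was at 22.7, 30.7, 31.6 and 27.8 CPM on day 2 and at 35.1, 45.5, 40.2 and 44.6 CPM on day 6, without overlap; Ifi27l2a averaged 978 ± 332 CPM on day 2 and 870.3 ± 447 CPM on day 6 (SD, n = 4 each). Bst2 had a log2 change of 0.52 with a 95% interval of 0.18 to 0.86. Of 21 chemokines and cytokines 16 were positive with a median of 0.31, with the chemokine Ccl6 at 74.5 ± 16.5 CPM on day 2 and 104 ± 22.1 CPM on day 6. T and NK cell markers summed to 14.6 to 29.3 CPM on day 2 and 18.9 to 36.4 CPM on day 6, with Lck at 1.08, 2.9, 1.97 and 2.57 CPM on day 2 and at 2.64, 2.81, 3.44 and 1.16 CPM on day 6 and Gzma at 1.08, 2.29, 1.71 and 0.935 CPM on day 2 and at 2.11, 2.37, 1.95 and 1.91 CPM on day 6, so their transcripts were few on both days. The T and NK cell median was 0.16, and -0.049 without day 6 replicate 3. B cell markers had 1 of 12 positive with a median of -0.67, Ighm at 861, 556, 398 and 1235 CPM on day 2 and at 849, 1328, 853 and 719 CPM on day 6 and Igkc at 13.5, 31.5, 23.3 and 24.4 CPM on day 2 and at 35.7, 3.48, 3.35 and 6.72 CPM on day 6, where day 6 replicate 1 alone had a high Igkc. Without that library the B cell median was -1.40. The mast cell protease Tpsb2 was at 9.17, 13.6, 9.17 and 11.8 CPM on day 2 and at 12.6, 4.51, 5.3 and 3.48 CPM on day 6. Tpsb2 had a log2 change of -0.77 with a 95% interval of -1.49 to -0.060. Kit, the mast cell growth factor receptor, was at 11.3, 13.9, 11 and 14.3 CPM on day 2 and at 12.9, 11.9, 8.46 and 29.1 CPM on day 6. Haemoglobin reads, a measure of blood in the tissue, were at 283, 475, 338 and 249 CPM on day 2 and at 515, 321, 192 and 167 CPM on day 6 for Hbb-bs and at 101, 144, 97.4 and 74.1 CPM on day 2 and at 168, 101, 62.7 and 50.6 CPM on day 6 for Hba-a1, with overlap.

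Ribosomal protein genes were slightly lower in most members, and immediate early genes higher. Of 73 ribosomal protein genes 70 had log2 changes below 0 (median -0.11), 9 were lower at an unadjusted p under 0.05 and 8 did not overlap; without day 6 replicate 4 the 9 became 2. Rps25 was at 220.1, 209.9, 207 and 208 CPM on day 2 and at 197, 182, 186 and 170.3 CPM on day 6 (log2 change of -0.20 with a 95% interval of -0.34 to -0.061), one of the 2 lower genes that DESeq2 called, and Rpl14 was at 217, 198, 207 and 236 CPM on day 2 and at 194, 177, 187 and 180.2 CPM on day 6 (log2 change of -0.22 with a 95% interval of -0.37 to -0.059). Rplp0 averaged 529 ± 13.8 CPM on day 2 and 558 ± 31.2 CPM on day 6 and Rpl4 507 ± 33.7 CPM on day 2 and 475 ± 17.2 CPM on day 6 (SD, n = 4 each). Ribosomal protein genes have many processed copies, and their values are uncertain on that account. Of 21 ribosome biogenesis genes 3 were positive with a median of -0.17, which was 0.0050 without day 2 replicate 4, Ncl averaging 235 ± 26.6 CPM on day 2 and 223 ± 17.6 CPM on day 6 and Npm1 132 ± 18.1 CPM on day 2 and 125 ± 10.3 CPM on day 6. Of 23 chaperone and stress genes of the endoplasmic reticulum, 13 were positive with a median of 0.036. At an unadjusted p under 0.05, 4 of them were higher (2 without day 6 replicate 4) and 0 lower, and 1 did not overlap. Of 15 heat shock genes 9 were positive with a median of 0.026, 2 were higher and 0 lower at that p, and 1 did not overlap. Among abundant chaperones, Hspa5 averaged 472 ± 106 CPM on day 2 and 456 ± 26.6 CPM on day 6, Hspa8 776 ± 317 CPM on day 2 and 703 ± 65.6 CPM on day 6, Hsp90ab1 763 ± 131 CPM on day 2 and 772 ± 61.8 CPM on day 6 and Calr 425 ± 28.4 CPM on day 2 and 469 ± 40.2 CPM on day 6. Of 24 immediate early genes, which respond within minutes to handling or growth signals, 22 had log2 changes above 0 (median 0.26, and 0.11 without day 6 replicate 2). Of these 4 were higher at an unadjusted p under 0.05, or 0 without day 6 replicate 4, and every one overlapped; Klf6 averaged 150.4 ± 29.1 CPM on day 2 and 166 ± 11.5 CPM on day 6. Glucocorticoid response genes gave 9 of 14 positive with a median of 0.11, which was -0.062 without day 2 replicate 4 and 0.29 without day 2 replicate 2, with Tsc22d3 at 139, 126, 109.9 and 108 CPM on day 2 and at 129.7, 146, 151 and 185 CPM on day 6.

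Single genes with the smallest p complete the picture. The 6 with the smallest p in each direction were taken among genes without overlap and at 1 CPM or more. Genes without a symbol or with a clone-type name, such as Gm or Rik, were left out. The higher ones were Ugt3a2, Col5a2, Arhgap20, Alb, Pkia and Abca8b, and the lower ones Hoxa9, Gpi1, Chchd10, Cdk13, Brd1 and Psmd11. Ugt3a2, a UDP-glycosyltransferase, had the smallest p of all: it stood at 0.54, 0.713, 0.531 and 0.351 CPM on day 2 and at 1.15, 1.94, 1.95 and 2.73 CPM on day 6, at low levels. Ugt3a2 had a log2 change of 1.81 with an SE of 0.35 and an adjusted p of 0.408 (edgeR). Pkia, an inhibitor of protein kinase A, was at 10.3, 11.6, 13.2 and 11.8 CPM on day 2 and at 16.1, 17.9, 17.2 and 18.6 CPM on day 6. Pkia had a log2 change of 0.55 with a 95% interval of 0.31 to 0.79. Abca8b, a lipid transporter of the ABC family, was at 16.2, 22.8, 19.9 and 21 CPM on day 2 and at 28.6, 30.2, 26.9 and 34.2 CPM on day 6. Abca8b had a log2 change of 0.56 with a 95% interval of 0.29 to 0.82. Arhgap20 was at 8.63, 10.9, 10.1 and 7.6 CPM on day 2 and at 13.8, 17.7, 13 and 15.6 CPM on day 6. Arhgap20 had a log2 change of 0.67 with a 95% interval of 0.38 to 0.96. In these 3 genes both groups were narrow and the lowest day 6 library lay a small step above the highest day 2 library. On chow, Pkia, Abca8b and Arhgap20 averaged 18.3 ± 1.77, 31.3 ± 2.25 and 18.2 ± 0.67 CPM (SD, n = 4 each). These chow means lay above the day 6 means of 17.5, 30 and 15 CPM. Chchd10, a mitochondrial intermembrane space protein, was at 51.3, 51.4, 134 and 47.7 CPM on day 2 and at 29.6, 20.2, 30.9 and 26.7 CPM on day 6, with day 2 replicate 3 far above the rest. Chchd10 had a log2 change of -1.44 with a 95% interval of -2.23 to -0.65. Hoxa9, a homeobox gene of body position, was at 3.24, 2.8, 0.493 and 1.29 CPM on day 2 and at 0.268, 0.474, 0.465 and 0.251 CPM on day 6. Hoxa9 had a log2 change of -2.28 with a 95% interval of -3.4 to -1.15. Cdk13, a kinase of transcription, was at 67.4, 64.6, 59.5 and 61.1 CPM on day 2 and at 53.6, 55.4, 54.1 and 50.3 CPM on day 6. Cdk13 had a log2 change of -0.24 with a 95% interval of -0.37 to -0.10. Brd1 and Psmd11, a chromatin reader and a proteasome subunit, had changes of -0.28 and -0.31, with narrow groups that differed by little.

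**Figure D5:**
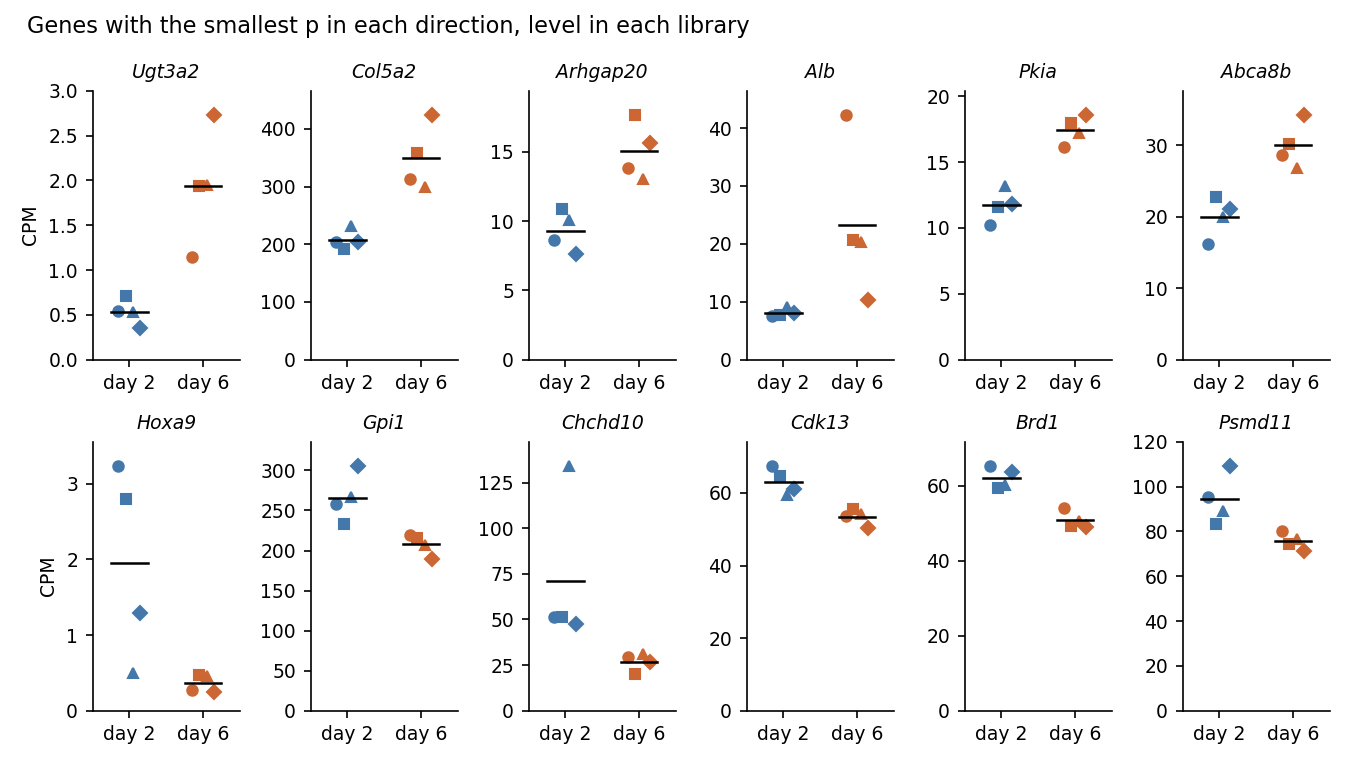
CPM (y axis, from 0) in each library of days 2 and 6 for 12 genes, the 6 with the smallest p in each direction. They were taken among genes without overlap, at 1 CPM or more and without clone-type names. Blue is day 2 and orange day 6, circle, square, triangle and diamond are replicates 1 to 4 and black bars means of 4. For Alb the day 6 libraries span 10.2 to 42.3 CPM above 7.55 to 9.06 CPM on day 2.

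Further genes were noticed after their values were seen. Cdsn, the corneodesmosin gene, was at 52.9, 63.7, 45.5 and 55.3 CPM on day 2 and at 63.3, 242, 173 and 169 CPM on day 6, low in day 6 replicate 1 and high in the other 3; DESeq2 called it with an adjusted p of 0.00234. Cdsn had a log2 change of 1.57 with an SE of 0.33 and an adjusted p of 0.408 (edgeR). Lctl, a lactase-like protein, was at 4.86, 8.15, 4.36 and 6.43 CPM on day 2 and at 7.47, 37.4, 23 and 37.3 CPM on day 6. Lctl had a log2 change of 2.11 with a 95% interval of 1.14 to 3.07. Wfdc21, a WAP-domain protein, was at 16.2, 17.7, 21.7 and 19.5 CPM on day 2 and at 20.6, 64, 65.3 and 81.3 CPM on day 6, and in both Lctl and Wfdc21 day 6 replicate 1 lay near day 2. Wfdc21 had a log2 change of 1.59 with a 95% interval of 0.87 to 2.31. Without that library 7 genes were called by edgeR, Lctl, Cdsn, Wfdc21, Ugt3a2 and Tspan17 higher and Slc6a4 and Mcpt4 lower. Prnp, the prion protein gene, was at 137, 238, 158 and 149.6 CPM on day 2 and at 214, 451, 290.3 and 331 CPM on day 6. Prnp had a log2 change of 0.91 with a 95% interval of 0.46 to 1.36. Cish, a feedback inhibitor of cytokine signalling through STAT5, split the day 2 group: it stood at 84.2, 72.7, 5.84 and 3.62 CPM on day 2 and at 3.45, 2.92, 3.07 and 6.56 CPM on day 6, where day 2 replicates 1 and 2 were over 10-fold above replicates 3 and 4, which lay at or near the day 6 values. Cish had a log2 change of -3.27 with a 95% interval of -5.09 to -1.44. From the muscle list, Acta1, skeletal muscle actin, was at 3.78, 4.43, 2.65 and 6.78 CPM on day 2 and at 10.3, 68.8, 18.6 and 19.5 CPM on day 6, while Ckm had 0 reads and Myl1 averaged 62.9 ± 7.61 CPM on day 2 and 64.2 ± 9.52 CPM on day 6 (SD, n = 4 each). Acta1 had a log2 change of 2.77 with a 95% interval of 1.32 to 4.22. Markers that could come from beside the fat pad were few: of 15 epididymal and ductal genes 4 passed the filter on low counts, with Cuzd1 at 3.78, 2.75, 0 and 3.39 CPM on day 2 and at 0.0383, 0.0395, 0 and 0 CPM on day 6 and Cldn1 at 0.54, 0.306, 0.417 and 0.351 CPM on day 2 and at 0.651, 2.65, 1.86 and 0.596 CPM on day 6, and of 10 germ cell genes 1 did, Spaca1 (at 2.7, 3.26, 1.59 and 3.86 CPM on day 2 and at 2.41, 4.66, 4.37 and 2.54 CPM on day 6). Cuzd1 was present in 3 of 4 day 2 libraries and near or at 0 in all day 6 libraries, and no fold is given at these counts. Nerve markers gave 4 of 9 positive with a median of -0.18 (-0.044 without day 2 replicate 4), Mbp, of myelin, averaging 46.8 ± 10.2 CPM on day 2 and 41.4 ± 5.73 CPM on day 6 and Pmp22 381 ± 73.8 CPM on day 2 and 304 ± 37.1 CPM on day 6.

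Of the remaining lists, 28 genes of activin, TGF-beta and BMP signalling had 10 positive changes with a median of -0.13 (-0.053 without day 6 replicate 4), Tgfbr3, a co-receptor, averaging 203 ± 15.8 CPM on day 2 and 184 ± 42.6 CPM on day 6 and Acvr1c, the receptor ALK7 of fat cells, 218 ± 57.4 CPM on day 2 and 249 ± 82.3 CPM on day 6 (SD, n = 4 each). Of 23 antioxidant and hypoxia genes 13 were positive with a median of 0.029 (0.0036 without day 2 replicate 1): Gpx3, the plasma glutathione peroxidase, was at 466, 1100.4, 763 and 609 CPM on day 2 and at 1018, 571, 336 and 239 CPM on day 6, low in day 6 replicate 4 as Cfd was, and Cat, catalase, averaged 952 ± 47.5 CPM on day 2 and 1031 ± 132 CPM on day 6. Gpx3 had a log2 change of -0.44 with a 95% interval of -1.24 to 0.35. Nr3c1, the glucocorticoid receptor gene, averaged 261 ± 12 CPM on day 2 and 236 ± 31.5 CPM on day 6. Bpifb6, a lipid-binding protein gene, was at 5.93, 1.63, 3.94 and 6.78 CPM on day 2 and at 1.42, 1.46, 7.63 and 9.48 CPM on day 6, with 2 low libraries on day 6 and 1 on day 2. Bpifb6 had a log2 change of 0.21 with a 95% interval of -1.17 to 1.6.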

How the data were processed

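RNA-seq libraries of epididymal fat were compared between high-fat day 6 and day 2. The authors deposited 1 table of unnormalized read counts for 39179 Ensembl IDs in 20 libraries, of which 37607 matched a symbol in a table of gene names. CASAVA, STAR, featureCounts, limma and R 3.0 are named without roles, per the submitters' processing notes. The build, annotation and strand setting are not given in the sources used here, so reads of overlapping or antisense genes cannot be told apart. A column kit gave the RNA and a TruSeq kit the libraries, per the labels' protocols. Columns were matched to samples by library name, and 0 columns were left unmatched.

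Counts were tested in R 4.3.3 with edgeR 4.0.16 (quasi-likelihood F test, robust dispersion, TMM scaling) after filterByExpr by group (minimum count 10, minimum total 15), which left 15254 genes, 141 without a symbol. All 20 libraries entered 1 fit on the day alone, leaving 15 residual degrees of freedom. Benjamini-Hochberg adjustment ran over the tested genes. Standard errors came from the F statistic. List levels are means of log2 CPM (TMM scaled, prior count 2). Promoter windows were read from RefSeq (GRCm38.p6).

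The members, the 46 gene lists (962 of 1031 entries tested), the panel of 25 genes and the alternatives were chosen with earlier results of these data known. Named genes were the 6 smallest p in each direction without overlap and at 1 CPM or more, the 2 highest members of each list, the panel, and genes chosen after their values were seen. The first group left out genes without a symbol or with a clone-type name. Genes chosen after their values were seen include members shown as examples of their list, among them Ctsl, Hexa, Lamp1, Becn1, Npc2, Fbln2, Fbn1, Col18a1, Fap, Bst2, Plin5, Bhlhe40, Angptl4 and Rps25. Such examples are not typical of their list.

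Alternatives were DESeq2 1.42.0, limma-voom 3.58.1 with quality weights, 2 other scalings, 2 other filters, a fit of 8 libraries, a replicate term, a threshold of 0.01 and each library left out. The statistics were tested on simulated counts. No library pair agreed within sampling noise.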

Additional observations from a re-analysis of the deposited data

Results flagged for a closer look

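A library was noted when its gap to the nearest of the 4 in its day, over the whole range, exceeded Dixon's 95% critical value for 4 samples. Chance alone gives about 1 in 20 groups. Among 92 group levels of lists 6 stood out, and among 326 group levels of named genes 15 did, so the gene count is near what chance gives. On day 6, replicate 1 had a B cell level of 0.701 against -1.2 to -0.954 in the others, and replicate 2 an interferon level of 0.597 against 0.321 to 0.356. Day 6 replicate 4 had a mesothelial level of 0.0639 against 0.627 to 0.679 and a smooth muscle and pericyte level of 0.285 against -0.116 to -0.0518. On day 2, replicate 3 had an epididymal and ductal level of -1.66 against 0.431 to 0.656, and replicate 1, the smallest library, a T and NK cell level of -0.622 against 0.156 to 0.289.

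Single genes were uneven within day 2. Replicate 3 held Chchd10 at 134 CPM against 47.7 to 51.4 in the others, Col3a1 at 1817 CPM, Col1a1 at 335 CPM, Ppargc1a at 23.8 CPM and Cuzd1 at 0 CPM. Replicate 2 held Fasn at 2332 CPM against 9905 to 11042 in the others, Cs at 644 CPM, Aldh1a7 at 132 CPM and Racgap1 at 4.43 CPM, and replicate 1 held Calr at 382 CPM. On day 6, replicate 1 held Cxcl12 at 204 CPM and Npr3 at 1103 CPM, and replicate 4 held Rgs5 at 388 CPM, Krt19 at 10.2 CPM and Becn1 at 70.7 CPM.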

How the results depend on the processing

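The count of called genes, 0 with edgeR, was also 0 with RLE or library size scaling, with no filter or a filter of 1 CPM in 4 libraries, with limma-voom, in a fit of only the 8 libraries, and in the 3 fits added after seeing the data that left out chow replicate 4, that library with day 2 replicate 1, or day 2 replicate 1 with day 6 replicate 4. DESeq2 gave 19 genes; it adjusted over 2537 genes in place of 15254, and what else sets the difference was not tested. Leaving out 1 of the 8 libraries gave 0 to 7 genes: 7 without day 6 replicate 1, 1 without day 6 replicate 4 and 0 for each of the others. At an unadjusted p under 0.05 the count of 1225 became 747 without day 6 replicate 4 and 528 with day 2 replicate 1 also left out, and 916 without day 2 replicate 1 alone, the library with the fewest counts (1916829). A threshold of 0.01 could add no gene, since none passed 0.05. Library size scaling gave 591 higher and 607 lower in place of 838 and 387, RLE scaling 742 and 480, and the filter of 1 CPM 684 and 499. Same-numbered libraries of the 2 days correlated in their deviations at -0.152, 0.244, -0.0151 and 0.216 for numbers 1 to 4. Only number 4 correlated best with its own. So few values cannot decide whether the numbers mark a shared batch, and the labels do not say. With the replicate block 0 genes were called, with a smallest adjusted p of 0.07 and 1445 genes at an unadjusted p under 0.05.

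Of 163 named genes, 136 kept their sign in all 19 other fits, as did the medians of 32 of 46 lists. The 27 genes with a sign change all had a 95% interval holding 0. With day 2 replicate 1 and day 6 replicate 4 both left out, the log2 change was -0.036 for Pecam1, 0.015 for Pfkfb3, -0.21 for Kit, 0.0073 for Ifi27l2a, 0.011 for Plin4, 0.071 for Hba-a1, 0.092 for Slc2a4, -0.0084 for Ramp2 and -0.27 for Bpifb6. With library size scaling, the log2 change was -0.011 for Hsp90ab1, -0.029 for Lpl and -0.0018 for Myl1. With a filter of 1 CPM in 4 libraries, the log2 change was -0.0011 for Hsp90ab1 and -0.017 for Lpl. With limma-voom with quality weights, the log2 change was 0.00039 for Ifi27l2a, 0.013 for Plin4, 0.0057 for Slc2a4 and -0.33 for Bpifb6. With RLE scaling, the log2 change was -0.014 for Lpl. With DESeq2, the log2 change was -0.014 for Lpl. With only the 8 libraries, the log2 change was -0.0043 for Lpl. With chow replicate 4 left out, the log2 change was -0.0060 for Lpl. With the replicate block, the log2 change was -0.046 for Lck and -0.17 for Cyp26b1. With chow replicate 4 and day 2 replicate 1 both left out, the log2 change was -0.020 for Lck. Leaving out 1 library at a time gave log2 changes of -0.0012 to 0.10 for Acadm, -0.050 to 0.34 for Aldh1a7, -0.037 to 0.30 for Aldh6a1, -0.37 to 0.55 for Bpifb6, -0.79 to 0.69 for Cox8b, -0.14 to 0.054 for Cxcl12, -0.088 to 1.15 for Cyp26b1, -0.55 to 0.085 for Hba-a1, -0.57 to 0.041 for Hbb-bs, -0.030 to 0.36 for Hp, -0.059 to 0.13 for Hsp90ab1, -0.14 to 0.11 for Hspa5, -0.27 to 0.18 for Hspa8, -0.37 to 0.14 for Ifi27l2a, -0.19 to 0.50 for Kit, -0.055 to 0.36 for Lck, -0.087 to 0.081 for Lpl, -0.042 to 0.11 for Myl1, -0.13 to 0.021 for Npm1, -0.082 to 0.36 for Npr3, -0.21 to 0.064 for Pdgfrb, -0.064 to 0.42 for Pecam1, -0.13 to 0.010 for Pfkfb3, -0.12 to 0.022 for Plin4, -0.066 to 0.16 for Ramp2, -0.0028 to 0.35 for Rgs5 and -0.17 to 0.063 for Slc2a4.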
